A study of Mus musculus with 4 samples.

Results

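The cells described here are fibroblasts of the mouse small intestine that carry Grem1 together with the atypical chemokine receptor gene Ackr4. They were selected on the measured values themselves: at least 1 UMI (unique molecular identifier, 1 captured transcript) of Grem1 and of Ackr4, a UMI of at least 2 of the crypt fibroblast genes Prss23, Col8a1, Stc2 and Cilp, and Sox6 (a gene of subepithelial fibroblasts) at 0. Fewer than 3 of the mesothelial-like genes Inmt, Penk, Vit and Scara5, and fewer than 3 of the genes Chodl, Dner, Thbs2 and Ptn of Fibin fibroblasts, were allowed. This gate held 3025 of 16891 cells of 2 10X Genomics libraries, out of 17630 cells in all, and is called Ackr4-positive. Within each library these cells were set against the 1848 cells that passed the same gate with Ackr4 at 0, called Ackr4-negative. All cells came from the small intestine of wild type C57Bl/6 mice, aged 8 weeks per the labels, with no treatment. Peyer's patches were cut out, epithelium was stripped with EDTA, the rest was digested with Liberase, and PDPN+ stromal cells lacking EpCAM, CD31 and CD45 were sorted, so that no cell without surface PDPN could be seen. The number of mice behind a library is not given in the sources used here. The library was therefore the replicate (n = 2). P-values measure only the spread between these libraries, which the test shares across genes, and not the spread of each gene alone.

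ACKR4 binds the chemokines CCL19, CCL21 and CCL25 and takes them up without G protein signalling. Gremlin 1 is a secreted protein that traps bone morphogenetic proteins (BMPs), which drive epithelial cells to differentiate as they leave the crypt. Fibroblasts below and around the crypts supply BMP antagonists and Wnt-enhancing factors to the stem cells, whereas fibroblasts of the villus core carry other matrix and growth factor genes.

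In GRCm38, Ackr4 lies on the minus strand at chr9:104084157-104126933 with 3 exons, and Grem1 on the minus strand at chr2:113746164-113758646 with 2 exons. Cd81, the gene of largest rise on the log2(UMIs per 10,000 + 0.1) scale, lies on the plus strand at chr7:143052739-143067934 with 8 exons. Igfbp5, the gene of largest fall on that scale, lies on the minus strand at chr1:72857932-72874884 with 4 exons. All are protein-coding genes, and exons are those of the principal transcript. Their promoters are shown because Ackr4 splits the cells, Grem1 marks the gate, and the others lead the differences. Each runs from 250 bases before to 50 bases after the RefSeq start (GRCm38.p6), 5′ to 3′ on the strand of the gene, at chr9:104126594-104126893, chr2:113758599-113758898, chr7:143052500-143052799 and chr1:72874816-72875115, with TATAAA on either strand in capitals.
Ackr4: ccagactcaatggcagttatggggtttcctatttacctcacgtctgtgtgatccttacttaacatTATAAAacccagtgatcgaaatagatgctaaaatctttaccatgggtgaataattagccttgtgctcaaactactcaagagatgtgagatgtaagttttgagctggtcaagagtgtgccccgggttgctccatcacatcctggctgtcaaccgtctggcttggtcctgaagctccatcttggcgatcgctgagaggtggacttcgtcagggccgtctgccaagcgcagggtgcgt
Grem1: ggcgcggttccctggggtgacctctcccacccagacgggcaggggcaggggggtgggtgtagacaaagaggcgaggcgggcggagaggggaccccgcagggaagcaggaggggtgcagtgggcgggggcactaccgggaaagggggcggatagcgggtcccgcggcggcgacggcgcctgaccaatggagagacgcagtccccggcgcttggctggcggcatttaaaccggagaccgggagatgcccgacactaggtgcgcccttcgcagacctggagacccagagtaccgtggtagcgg
Cd81: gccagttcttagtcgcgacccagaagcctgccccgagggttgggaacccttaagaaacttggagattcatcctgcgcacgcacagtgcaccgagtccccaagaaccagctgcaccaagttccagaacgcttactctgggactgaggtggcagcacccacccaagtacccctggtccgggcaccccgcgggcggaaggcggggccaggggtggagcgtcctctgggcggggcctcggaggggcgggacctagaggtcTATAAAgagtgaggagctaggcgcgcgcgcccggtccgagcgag
Igfbp5: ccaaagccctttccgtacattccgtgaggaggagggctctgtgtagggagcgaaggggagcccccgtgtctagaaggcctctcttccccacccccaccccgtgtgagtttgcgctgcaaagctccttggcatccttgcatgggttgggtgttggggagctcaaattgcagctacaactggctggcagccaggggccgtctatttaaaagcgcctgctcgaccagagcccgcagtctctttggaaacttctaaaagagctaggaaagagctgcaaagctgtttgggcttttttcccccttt
TATAAA begins 185 bases before the start of Ackr4 and 6 bases after that of Cd81, and these letters are not in the windows of Grem1 and Igfbp5. They were held by 13.6% of 32851 promoters of this length. TGTTTAC (forkhead) and TGANTCA (AP-1), searched on both strands, were held by 3.65% and 7.81% of promoters and by none of these 4. Of the 12 genes of largest rise named further on, 7 had a promoter in the table and 3 of these held TATAAA. Of the 12 of largest fall, 10 had one and 2 held it. A match of letters is a description only.

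The Ackr4-positive cells made up 579 of 2547 cells (22.7%, exact 95% interval 21.1 to 24.4%) in 10X library 1 and 2446 of 14344 cells (17.1%, 16.4 to 17.7%) in 10X library 2. Intervals cover counting error only, and the libraries differed by more than that. Within the gate, 63.5% and 61.8% of cells had Ackr4. The groups differed in depth: the median was 9619 and 7753.5 UMIs per Ackr4-positive cell in libraries 1 and 2, and 7880 and 6818 per Ackr4-negative cell. When all cells were thinned to 2000 UMIs before the gate, with 62 and 311 shallower cells left out, the shares fell to 14.6% and 9.48% of all cells and to 47.3% and 47.5% of the gate. Ackr4-negative thus means that no transcript was captured, not that the gene was shown to be off.

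Most cells with both Grem1 and Ackr4 passed the gate. In library 1, 1320 cells had Grem1 and 823 also Ackr4. Of these, 810 had at least 2 crypt genes, 806 also lacked Sox6 and 594 had fewer than 3 mesothelial-like genes. In library 2 the numbers were 6251, 3397, 3223, 3074 and 2583. The mesothelial-like genes removed the most cells in both. Of the Ackr4-positive cells kept, 225 and 781 had 2 of these genes, the most allowed, and 112 and 634 had none. All 4 crypt genes were detected in 413 and 1489 Ackr4-positive cells, 3 in 123 and 685, and 2 in 43 and 272. Just outside the threshold, 3 and 81 cells had 1 crypt gene. In library 2, Cd81 stood at 0.945 UMIs per 10,000 in cells with 1 crypt gene and at 1.92, 3.63 and 4.74 in cells with 2, 3 and 4. Adamdec1, a villus fibroblast gene, stood at 67.9, 38.4, 25.6 and 11.9 in the same order, in which median depth rose from 5483 to 8321 UMIs. In library 1, where 3 cells had 1 crypt gene, the order was not steady: Cd81 stood at 1.02, 0.946, 1.77 and 4.55 and Adamdec1 at 36.7, 50.4, 31.7 and 4.76, at median depths of 7880, 9833, 8718 and 10003 UMIs.

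The genes that the gate used are given as a description, without a test. Levels are UMIs per 10,000, summed over the cells of a group in a library, and are given for libraries 1 and 2 in Ackr4-positive cells against libraries 1 and 2 in Ackr4-negative cells, here and below. Ackr4 stood at 4.18 and 4.49 in the Ackr4-positive cells. Grem1 stood at 18.2 and 14.8 against 7.93 and 6.59. Stc2 (stanniocalcin 2, a secreted glycoprotein) stood at 8.78 and 7.13 against 3.87 and 3.18, and Prss23 (a serine protease) at 23.3 and 18.4 against 6.93 and 6.50. Col8a1 (a short-chain collagen) stood at 5.95 and 3.92 against 2.59 and 1.67, and Cilp (a cartilage matrix protein) at 8.64 and 5.89 against 3.43 and 2.34. These 5 genes other than Ackr4 lay higher in the Ackr4-positive cells of both libraries, although both groups had passed the same conditions on them.

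Gdf6 and Ism1, crypt fibroblast markers that the gate did not use, rose as well. Their list follows markers that the study found in these same cells, so their direction is not independent evidence. Gdf6, a BMP family ligand, stood at 0.729 and 0.789 against 0.113 and 0.183 (log2 difference 1.81 ± 0.13 SE, adjusted p = 9.96e-08, limma). Ism1 (isthmin 1, a secreted protein) stood at 0.638 and 1.03 against 0.169 and 0.383 (log2 difference 1.34 ± 0.12 SE, adjusted p = 9.12e-07, limma). A Gdf6 UMI was found in 38.5% and 39.0% of Ackr4-positive and 7.81% and 10.8% of Ackr4-negative cells. An Ism1 UMI was found in 39.6% and 45.9% of Ackr4-positive and 10.5% and 19.2% of Ackr4-negative cells. At 2000 UMIs per cell, the Gdf6 shares were 11.9% and 14.2% against 2.76% and 4.32%, and Sox6-detected cells (median 11064 and 8299 UMIs), a group in which both genes were low, had 1.06% and 1.57%. For Ism1 the thinned shares were 13.7% and 17.9% against 2.76% and 7.78%, with 0.353% and 1.27% in Sox6-detected cells. Both markers were also found in the mesothelial-like gate, cells with at least 3 of the mesothelial-like genes: Gdf6 had a UMI in 31.3% and 22.4% of them and Ism1 in 36.8% and 32.5%. They therefore set the Ackr4-positive cells apart from the Ackr4-negative cells but do not by themselves single out a crypt population, and position along the crypt was not measured.

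Ackr4 was not particular to the gate. It had a UMI in 76.6% and 62.7% of 329 and 1063 cells with at least 3 mesothelial-like genes, and in 52.0% and 59.0% of 100 and 697 cells with at least 3 Fibin fibroblast genes, both with Sox6 at 0. At 2000 UMIs the shares were 43.1% and 36.2% in the former and 20% and 30.9% in the latter. Sox6-detected cells had Ackr4 in 3.16% and 9.19%, cells with Grem1 at 0 in 10.6% and 11.0%, and Grem1-positive cells with fewer than 2 crypt genes in 2.75% and 9.47%. No group here gave a clean reference for free RNA. Of the few cells with a UMI of the leukocyte gene Ptprc, 2 of 5 and 11 of 76 had Ackr4, with intervals of 5.27 to 85.3% and 7.45 to 24.4% and medians of 10372 and 5394.5 UMIs. These cells also had Prss23 in 60.0% and 39.5% and Grem1 in 40.0% and 25%. Whether the low Ackr4 shares of the other groups are expression or background was not tested.

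**Figure D1:**
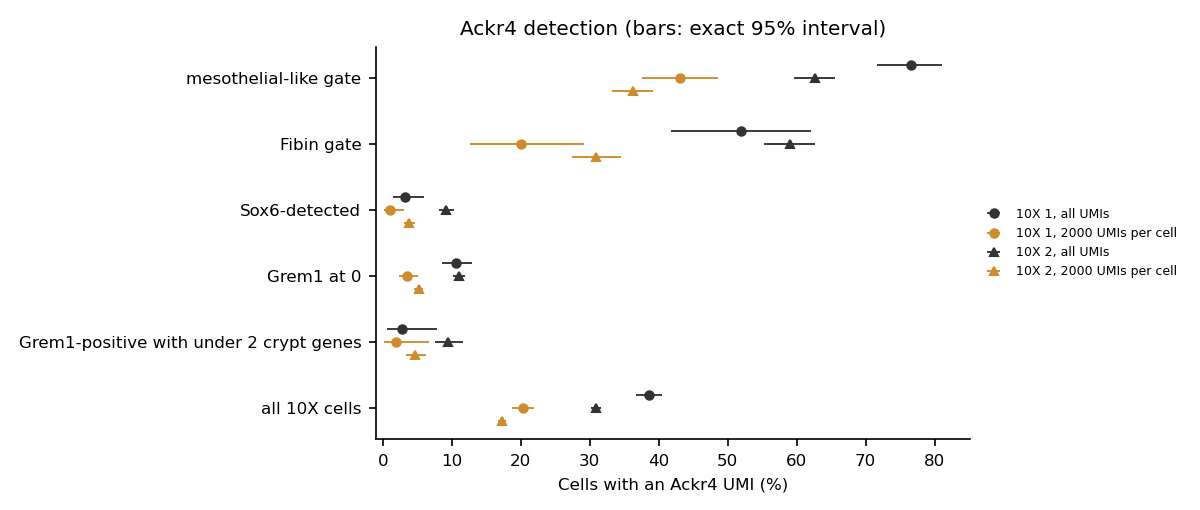
Share of cells with an Ackr4 UMI (x axis, percent) in gated and other groups of the 2 10X libraries (circles, library 1; triangles, library 2), from all UMIs (dark) and after thinning each cell to 2000 UMIs (orange), with exact 95% binomial intervals. From all UMIs the mesothelial-like and Fibin gates lie at 52.0% or above, and the Sox6-detected, Grem1 at 0 and low crypt gene groups at 11.0% or below.

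Beside Grem1, the Ackr4-positive cells differed from the Ackr4-negative cells of the same gate in many genes. Of 1474 genes tested, 350 rose (23.7%) and 355 fell (24.1%), so that 47.8% were called (limma with the library as block, adjusted p at most 0.05). Without the block 338 of 1474 genes were called, and with the gate and values thinned to 2000 UMIs per cell 112 of 811. Of the 705 genes called, 704 had the same sign in both libraries, and the exception was the chemokine gene Cxcl9. With each group centred on its median gene, 420 rose and 284 fell. The Ackr4-negative cells carried more villus fibroblast genes: a median of 7 of 10 villus markers was detected per cell in each library, against 3 in Ackr4-positive cells. Among cells with fewer than 4 of these markers, a split chosen after seeing the data, 62 of 1328 genes were called (4.67%), and 37 of them were called with the same sign among all cells. That split kept 394 and 1246 Ackr4-positive cells (median 8912 and 6968 UMIs) and 75 and 250 Ackr4-negative cells (3839 and 3960.5 UMIs), which were shallower. Within 5 strata of depth, 709 of 1474 genes were called over all gated cells, and with values thinned after the gate 520 of 1483. Beyond these counts, the part of villus genes and depth in the other differences was not tested. With all 4 crypt genes required, 211 of 1489 genes were called.

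**Figure D2:**
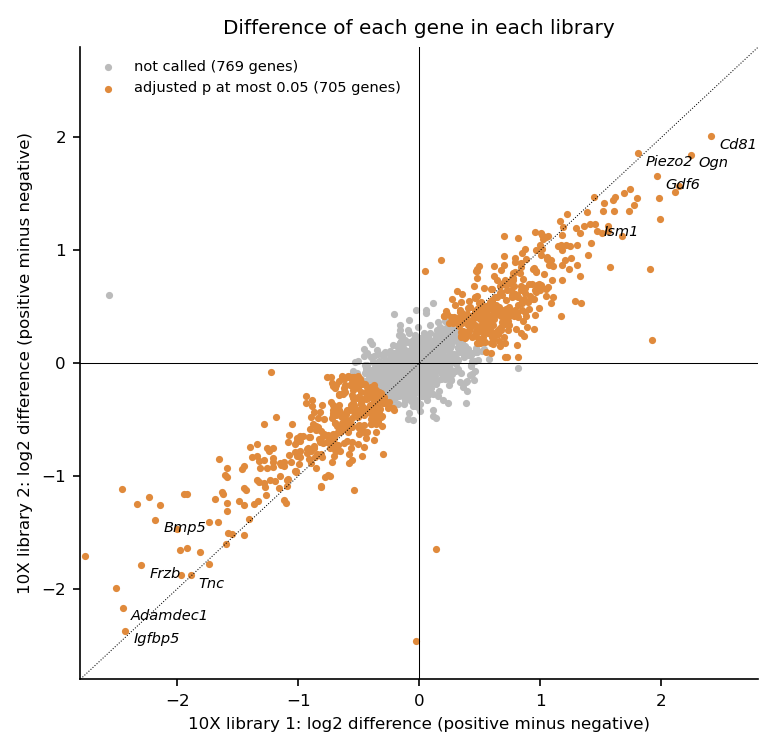
Log2 difference of each of 1474 tested genes between Ackr4-positive and Ackr4-negative gated cells in 10X library 1 (x axis) and 10X library 2 (y axis), with orange for the 705 genes at an adjusted p of at most 0.05 and a dotted line of equal difference. Called genes run from Igfbp5 (-2.40) and Adamdec1 (-2.31) at the lower left to Cd81 (2.21) and Ogn (2.04) at the upper right.

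Among the genes that rose, Cd81 led on the scale with 0.1 added. Cd81, a tetraspanin of the cell surface, stood at 3.78 and 4.20 against 0.632 and 0.969 UMIs per 10,000, 5.99-fold and 4.34-fold higher (log2 difference 2.21 ± 0.13 SE, adjusted p = 2.69e-08, limma). Ogn (osteoglycin, a small leucine-rich proteoglycan) stood at 7.92 and 7.55 against 1.60 and 2.03 (log2 difference 2.04). Piezo2, a mechanically gated ion channel, stood at 3.03 and 2.49 against 0.797 and 0.613 (log2 difference 1.83). These genes were chosen by the size of their difference, so the distance between their groups is a description. Chrdl1 (chordin-like 1, a BMP antagonist) stood at 0.446 and 0.394 against 0.0263 and 0.0729 and Cldn10 (a claudin) at 0.573 and 0.444 against 0.0526 and 0.0830, low levels at which the added 0.1 shrinks the difference: as ratios of levels they were 17.0-fold and 5.40-fold and 10.9-fold and 5.35-fold higher, more than Cd81. Both had a UMI in under 5% of Ackr4-negative cells of each library and so passed the filter through the Ackr4-positive cells. The others were Gdf6, Cpz (a carboxypeptidase), Slit2 (an axon guidance ligand), Aoc3 (an amine oxidase), Fam129a, Galnt16 (a glycosyltransferase) and Gas1 (a hedgehog co-receptor), with log2 differences from 1.59 to 1.81. Among cells low in villus markers, Ogn, Cldn10, Piezo2, Chrdl1, Gdf6 and Aoc3 remained called (log2 differences from 0.43 to 0.90). Each was larger in library 1, from 0.64 (Ogn) to 1.39 (Chrdl1), than in library 2, from 0.22 (Ogn) to 0.67 (Gdf6). Cd81 was then at 4.80 and 5.19 against 3.66 and 4.42 and did not pass (log2 difference 0.30, adjusted p = 0.239, limma).

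Among the genes that fell, Igfbp5 led on the same scale. Igfbp5, an insulin-like growth factor binding protein, stood at 3.51 and 3.92 against 19.4 and 20.7 UMIs per 10,000, 5.52-fold and 5.28-fold higher in the Ackr4-negative cells (log2 difference -2.40 ± 0.11 SE, adjusted p = 5.94e-09, limma). Adamdec1, a secreted metalloprotease, stood at 12.9 and 17.8 against 71.1 and 80.3 (log2 difference -2.31), and Tnc (tenascin C, a matrix glycoprotein) at 1.08 and 1.33 against 4.26 and 5.18 (log2 difference -1.89). They too were chosen by the size of their difference. Hmcn1, Fhl2, Frzb, Igfbp3, Ddah1, Tes, Bmp5, Acta2 and Lpl completed the 12, with log2 differences from -2.25 to -1.78. As a ratio of levels, Frzb, at 10.1-fold and 5.72-fold, fell more than Igfbp5 in both libraries. Among cells low in villus markers, Igfbp5 stood at 1.15 and 0.513 against 5.77 and 1.83, Adamdec1 at 1.39 and 3.35 against 3.23 and 6.00 and Tnc at 0.133 and 0.364 against 0.476 and 0.654, and all 3 had an adjusted p under 0.05. Igfbp5 and Adamdec1 are among the 10 markers that define this split, and its Ackr4-negative cells are shallower, so their values there are a description. The same holds for Lpl, Hmcn1, Frzb and Igfbp3, which are also among those 10 markers. Of the 9 genes that completed the 12, Fhl2, Acta2 and Lpl were tested and did not pass, and Hmcn1, Frzb, Igfbp3, Ddah1, Tes and Bmp5 had too few cells with a UMI to be tested. In the same split, Saa3 (serum amyloid A3, an acute-phase protein) had the largest difference, -4.87 on the log2 scale, with -6.08 in library 1 and -3.66 in library 2.

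**Figure D3:**
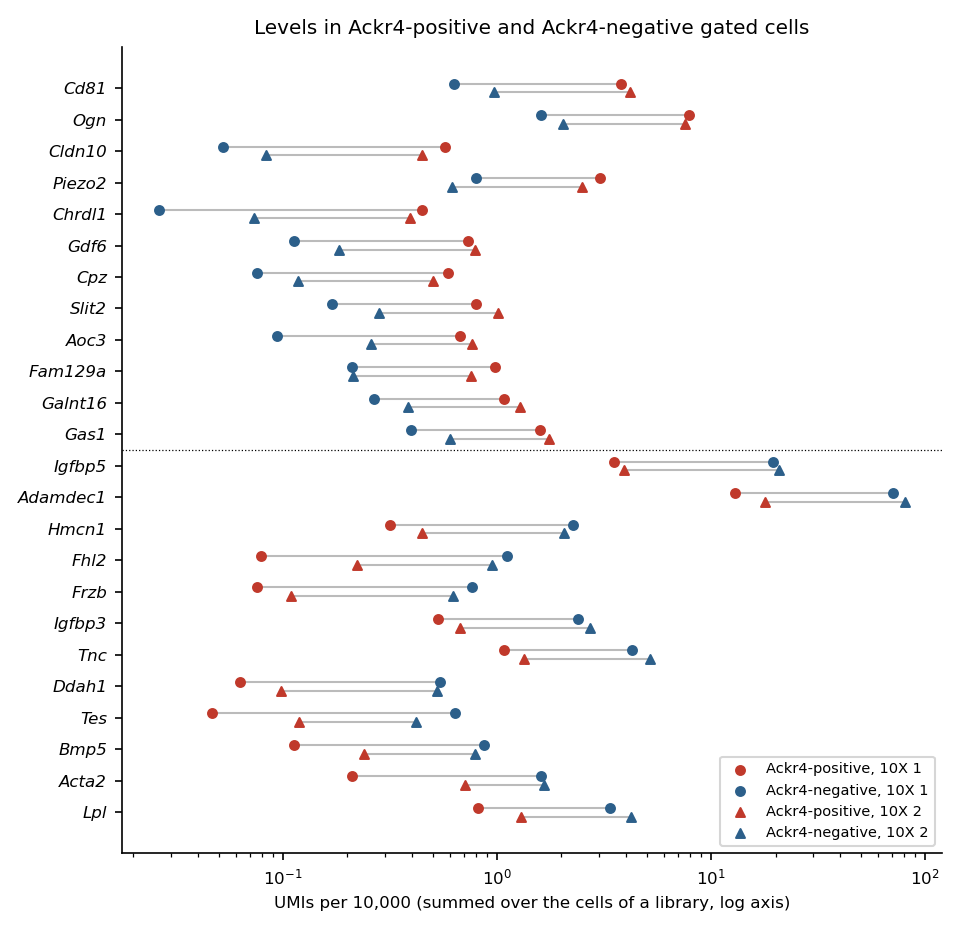
Levels (x axis, UMIs per 10,000 on a log axis) of the 12 genes of largest rise and 12 of largest fall, in Ackr4-positive (red) and Ackr4-negative (blue) gated cells of 10X library 1 (circles) and 10X library 2 (triangles), with grey lines joining the groups of a library. The genes were chosen by the size of their difference, with Cd81 at 3.78 and 4.20 against 0.632 and 0.969 and Igfbp5 at 3.51 and 3.92 against 19.4 and 20.7.

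All 10 villus fibroblast markers fell, beside 24.1% of all genes tested, with a median log2 difference of -1.85 beside -0.05 over all genes tested. The list follows markers that the study found in these cells, so its direction is not independent evidence. Summed over the list, the level was 34.8 and 46.0 against 127 and 143. Villus genes were lower but present, and 185 and 1200 Ackr4-positive cells had 4 or more of the 10. Sfrp1, a secreted Wnt antagonist, moved least, at 15.05 and 19.4 against 21.1 and 24.9.

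Of 9 BMP antagonists tested, 5 rose, beside 23.7% of all genes. Of these 5, Chrdl1 and Fst had a UMI in 3.41% and 2.22% of Ackr4-negative cells and passed the filter through the Ackr4-positive cells, so the count is a description. Beside Chrdl1, Smoc2 stood at 1.01 and 1.21 against 0.530 and 0.506 (log2 difference 0.96) and Fst (follistatin, which binds activins and BMPs) at 0.138 and 0.121 against 0.0263 and 0.0470. Bmper rose with a log2 difference of 0.34, and Chrd, Nbl1, Htra1 and Crim1 did not pass. Of 6 BMP and TGF-beta family ligands tested, Gdf6 and Tgfb3 (1.43 and 1.24 against 0.786 and 0.622) rose, whereas Bmp5 (0.113 and 0.239 against 0.865 and 0.789), Bmp2 (0.779 and 0.896 against 1.03 and 1.42) and Tgfb2 fell, beside 23.7% and 24.1% of all genes. Of 8 receptors and targets, Id3, a repressor induced by BMP signalling, stood at 6.83 and 6.74 against 3.98 and 4.39 and Bambi, a decoy receptor, at 0.557 and 0.520 against 0.169 and 0.323, and these 2 rose, a share close to the 23.7% of all genes. Id1, another target, stood at 0.136 and 0.190 against 0.109 and 0.203 and did not pass. Among cells low in villus markers, Chrdl1 of 9 antagonists, Gdf6 of 5 ligands and none of 7 receptors and targets remained called. Of all genes tested there, 4.67% were called.

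Of 5 Wnt agonists and receptors tested, Rspo1 (R-spondin 1, which amplifies Wnt signalling, 0.247 and 0.220 against 0.124 and 0.137) and Wnt5b rose. Rspo3 stood at 0.745 and 0.872 against 0.609 and 0.741 and did not pass, nor did Wnt5a and Lgr4. Of 4 Wnt antagonists and related receptors, Frzb (a secreted frizzled-related protein, 0.0753 and 0.109 against 0.763 and 0.623) and Sfrp1 fell, and Dkk2 and Ror2 did not pass. Together 4 of 9 were called, beside 47.8% of all genes tested, which is no result about Wnt genes, and Wnt5b had a UMI in 2.38% of Ackr4-negative cells.

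Of 13 chemokines and chemokine receptors tested, 4 rose and 4 fell, close to the 23.7% and 24.1% of all genes tested. Of the 4 that fell, Cxcl5 and Cxcl9 had a UMI in 3.31% and 4.56% of Ackr4-positive cells and passed the filter through the Ackr4-negative cells. Ccl19, a ligand of ACKR4, stood at 0.183 and 0.250 against 0.124 and 0.165 (log2 difference 0.37 ± 0.12 SE, adjusted p = 0.0190, limma), a small rise at a low level. Ccl25, another of its ligands, stood at 0.0663 and 0.0678 against 0.0865 and 0.0581 and did not pass, and Ccl21a and the signalling receptors Ccr7 and Ccr9 did not reach the 5% of cells needed for a test. Ccl7, a monocyte attractant, stood at 1.08 and 0.748 against 0.214 and 0.375. Ccl2, another, stood at 4.11 and 4.07 against 1.01 and 3.51, and its rise was large in library 1 and small in library 2. The fourth was Cxcl13, a B cell attractant. Ackr3, a scavenger of CXCL12, fell (0.930 and 0.841 against 1.46 and 1.25), as did Cxcl14, Cxcl5 and Cxcl9. Cxcl9 is called although its log2 difference was 0.14 in library 1 and -1.65 in library 2. None of these genes was called among cells low in villus markers, where 9 could be tested. As 4.67% of all genes tested there were called, that count is no result about chemokines.

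Of 15 cytokines and growth factors tested, 4 rose and 6 fell, beside 23.7% and 24.1% of all genes tested. Pdgfc, at 2.81% of Ackr4-negative cells, and Fgf10, at 3.80% of Ackr4-positive cells, passed the filter through the group in which they were higher. Vegfd, a lymphatic growth factor, stood at 1.07 and 1.19 against 0.308 and 0.408 and Il6 (interleukin 6) at 3.96 and 5.75 against 1.52 and 3.32, and Pdgfc and Tnfaip6 rose too. Kitl (the ligand of KIT) stood at 0.156 and 0.323 against 0.665 and 1.10, Ereg (epiregulin, an EGF receptor ligand) at 0.645 and 1.02 against 1.93 and 3.13 and Hgf (hepatocyte growth factor) at 0.186 and 0.238 against 0.654 and 0.466, and Fgf10, Il34 and Igf1 fell too. Il33 and Vegfa did not pass. Of 12 tested among cells low in villus markers, Vegfd (0.66) and Kitl (-0.93) remained called, with those log2 differences, beside 4.67% of all genes tested there.

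Of 12 collagens tested, 5 rose and 4 fell, again beside 23.7% and 24.1% of all genes tested. Col1a1, of type I collagen, stood at 101 and 64.4 against 51.4 and 40.0, Col3a1 at 109 and 91.4 against 72.7 and 68.7 and Col14a1 at 19.2 and 21.2 against 9.50 and 10.9, and Col4a5 and Col1a2 rose too. Col6a5 (0.339 and 0.539 against 1.36 and 2.09), Col27a1, Col12a1 and Col18a1 fell. Of 34 elastic fibre and matrix glycoprotein genes, 16 rose and 10 fell, beside the same shares, and Fbn2 among the 16 had a UMI in 3.41% of Ackr4-negative cells. Sparcl1 (4.42 and 3.95 against 1.26 and 1.49), Olfml2b and Pcolce2 (an enhancer of procollagen processing) rose most after Ogn, and Hmcn1 (hemicentin), Tnc, Fbln5 and Fn1 (fibronectin, 5.45 and 7.70 against 13.4 and 14.1) fell most. Eln (elastin) stood at 11.3 and 8.10 against 9.45 and 8.08 and did not pass. Of 19 proteases and inhibitors, 12 rose and 3 fell, beside 23.7% and 24.1% of all genes, with Cpz, Ctsh (cathepsin H) and Cpxm1 highest. Among cells low in villus markers 3 of 19 were called, beside 4.67% of all genes tested there, and all were lower in Ackr4-positive cells: Serpine2 (-0.97), Timp1 (-0.80) and Timp3 (-0.64). Timp1 was among the 12 that rose over all cells (log2 difference 0.44). Timp3, a metalloprotease inhibitor, stood at 1.61 and 1.84 against 4.90 and 5.42 and fell, as did Pappa, a protease of IGF binding proteins, and Serpine2. Igfbp3 (0.532 and 0.668 against 2.38 and 2.72) fell beside Igfbp5, and Igfbp6 did not pass.

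Of 9 complement genes tested, 5 rose and 2 fell, beside 23.7% and 24.1% of all genes tested. C3 stood at 45.2 and 47.9 against 24.1 and 29.4, C7 at 1.09 and 1.72 against 0.515 and 0.710 and Cfb (factor B) at 0.921 and 0.680 against 0.429 and 0.426, and Colec12 and C2 rose too. Masp1, a protease of the lectin pathway, was among those that fell, and C4b, at 28.6 and 28.5 against 25.6 and 24.2, did not pass. Among cells low in villus markers, 3 of 12 collagens, 6 of 33 glycoproteins and 4 of 9 complement genes were called, beside 4.67% of all genes tested there. These were Col1a1, Col3a1, Sparc, Fbln1, Aebp1, Ogn, C4b, Cfb, C7 and Colec12, higher in Ackr4-positive cells, and Col27a1, Tnc and Efemp1, lower.

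Of 19 axon guidance and neural genes tested, 12 rose and 6 fell, beside 23.7% and 24.1% of all genes tested. Of these, Epha7 and Brinp3 among the risers and Plxna4, Efnb2 and Gdnf among the others had a UMI in under 5% of the cells in which they were lower. Slit2 stood at 0.797 and 1.01 against 0.169 and 0.282 and Flrt3, a guidance receptor, at 0.944 and 0.582 against 0.241 and 0.147. The neurotrophin receptors Ntrk3 (1.37 and 0.937 against 0.632 and 0.367) and Ntrk2 rose, while the semaphorin receptors Nrp1 (1.87 and 1.94 against 2.91 and 2.90), Nrp2 and Plxna4, the ligands Sema3f and Efnb2, and the neurotrophic factor Gdnf fell. Sema3c did not pass. Piezo2 was the only 1 of 15 that remained called among cells low in villus markers, near the 4.67% of all genes tested there.

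Of 14 transcription factors tested, 5 rose and 8 fell, beside 23.7% and 24.1% of all genes tested. Ebf1 stood at 2.93 and 2.34 against 0.929 and 0.954, Meis2 at 2.99 and 3.50 against 1.26 and 1.54 and Osr1 at 0.735 and 0.887 against 0.301 and 0.415, and Foxp2 and Klf4 rose too. Tbx2 (0.0538 and 0.110 against 0.395 and 0.384), Foxf2 (0.147 and 0.192 against 0.643 and 0.488), Sox9, Tbx3, Sox4, Hoxc8, Nr2f1 and Tcf4 fell. None of the 12 tested among cells low in villus markers was called, and Ebf1 had a log2 difference of -0.01 there. As 4.67% of all genes tested there were called, that count is no result about transcription factors. Of 10 surface genes, Cd81, Pi16, Ly6a and Ly6c1 rose and Cd200, Cd44 and Vcam1 fell, 4 and 3 genes beside the same shares. Pdgfra, the receptor that marks most fibroblasts, stood at 3.83 and 4.75 against 3.42 and 4.45 and did not pass. Pi16, a marker of adventitial fibroblasts, stood at 1.01 and 0.735 against 0.654 and 0.574 (log2 difference 0.44) and was lower instead among cells low in villus markers (log2 difference -0.84).

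Immediate-early and heat shock genes, which can be induced while tissue is digested, rose in 21 of 31 tested and fell in none, beside 23.7% and 24.1% of all genes tested, with a median log2 difference of 0.50 (0.67 in library 1 and 0.34 in library 2). Fosb stood at 15.5 and 13.2 against 7.97 and 7.33, Jun at 19.97 and 15.6 against 11.1 and 11.2 and Dnajb1 at 4.50 and 4.97 against 2.06 and 2.94, while Hspa1a and Hspa1b did not pass. Among cells low in villus markers 2 of 31 passed, beside 4.67% of all genes tested there, Nr4a1 (-0.42) and Klf2 (-0.49), both with a negative log2 difference. The part of these genes in the other results was not tested.

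**Figure D4:**
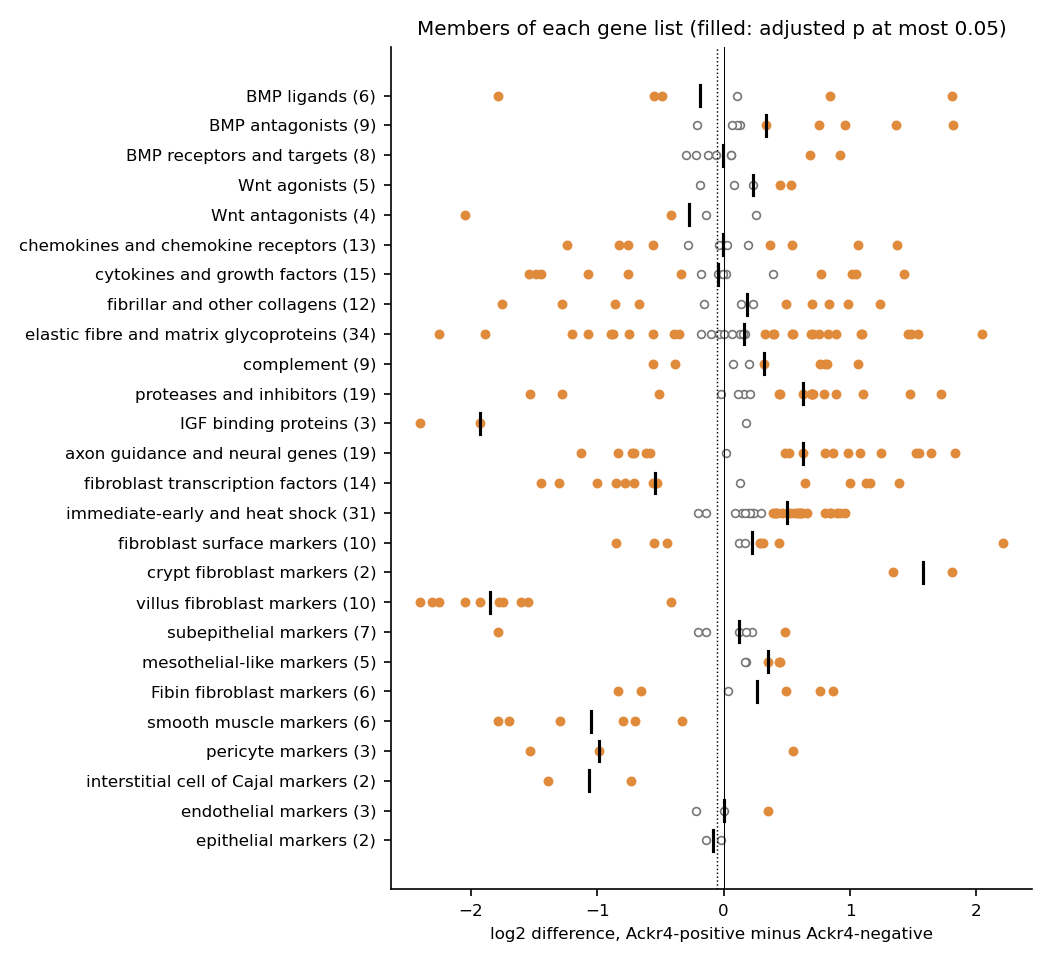
Log2 difference between Ackr4-positive and Ackr4-negative gated cells (x axis) of the tested members of each gene list (rows, number tested in parentheses), filled where the adjusted p is at most 0.05, with a thick bar at the list's median and a dotted line at the median of all genes tested. Villus markers lie to the left (median -1.85) and immediate-early and heat shock genes to the right (median 0.50).

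Markers of cells that the sort should remove were low in both groups. Summed over the list, 13 immune markers stood at 0.288 and 0.246 against 0.327 and 0.273, 12 epithelial markers at 0.154 and 0.410 against 0.184 and 0.445 and 11 endothelial markers at 1.12 and 1.04 against 1.21 and 1.15. Of 3 endothelial markers tested, Pecam1 rose (log2 difference 0.35), beside 23.7% of all genes tested, so the count is no result about endothelial markers. Pecam1 had a UMI in 2.33% of Ackr4-negative cells. The other endothelial markers did not pass, nor did the 2 epithelial markers tested. Of 10 glia and 7 mesothelium markers, none reached the 5% of cells needed for a test. Smooth muscle genes differed. Of 10, 6 were tested and fell, beside 24.1% of all genes tested. Of these 6, Myh11 and Hhip, at 3.60% and 4.36% of Ackr4-positive cells, passed the filter through the Ackr4-negative cells, so the count is a description. Among cells low in villus markers, 1 of 4 tested was called, Des (log2 difference -0.80), beside 4.67% of all genes tested there. Acta2 (smooth muscle actin) stood at 0.210 and 0.709 against 1.60 and 1.65 and the defining gene Myh11 at 0.00896 and 0.161 against 0.0301 and 0.244, and the summed level was 0.901 and 1.91 against 4.11 and 4.21. Of 3 pericyte markers tested, Cspg4 and Rgs5 fell and Abcc9 rose, beside 24.1% and 23.7% of all genes tested. Abcc9 had a UMI in 3.03% of Ackr4-negative cells. The summed level of the pericyte markers was 11.1 and 12.4 against 22.8 and 24.3. Neither of the 2 pericyte markers tested among cells low in villus markers was called. Of 2 interstitial cell of Cajal markers tested, Etv1 and Gja1, both fell, beside 24.1% of all genes tested. The summed level of that list was 0.260 and 0.416 against 0.767 and 0.905. Without the cells that had a UMI of Ptprc, Pecam1, Epcam, Sox10 or Myh11 (42 and 238 Ackr4-positive, 20 and 152 Ackr4-negative), 698 of 1459 genes were called.

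The Ackr4-positive cells varied among themselves. Levels of the leading genes were graded along the number of Ackr4 UMIs per cell, which was 1 in 24.0% and 28.1% of members in libraries 1 and 2, 2 in 20.6% and 20.1% and 3 or more in 55.4% and 51.8%. Given for gated cells with 0, 1, 2 and 3 or more Ackr4 UMIs, Cd81 stood at 0.632, 2.24, 3.05 and 4.46 in library 1 and 0.969, 2.68, 3.76 and 4.95 in library 2. Gdf6 stood at 0.113, 0.313, 0.486 and 0.924 in library 1 and 0.183, 0.526, 0.682 and 0.930 in library 2. Adamdec1 stood at 71.1, 31.5, 19.1 and 5.51 in library 1 and 80.3, 32.2, 21.9 and 10.7 in library 2, and so ran the other way. The median depth was 7880, 7032, 7699 and 11075 UMIs in library 1 and 6818, 6204, 6754.5 and 8713 in library 2, so that cells with 1 Ackr4 UMI were shallower than those with none, and those with 3 or more were the deepest. Il6, at 1.52, 3.72, 3.61 and 4.14 in library 1 and 3.32, 6.13, 6.47 and 5.37 in library 2, did not follow a steady grade. Nor did Ccl7, at 0.214, 0.892, 2.09 and 0.856 in library 1 and 0.375, 0.793, 0.716 and 0.740 in library 2.

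**Figure D5:**
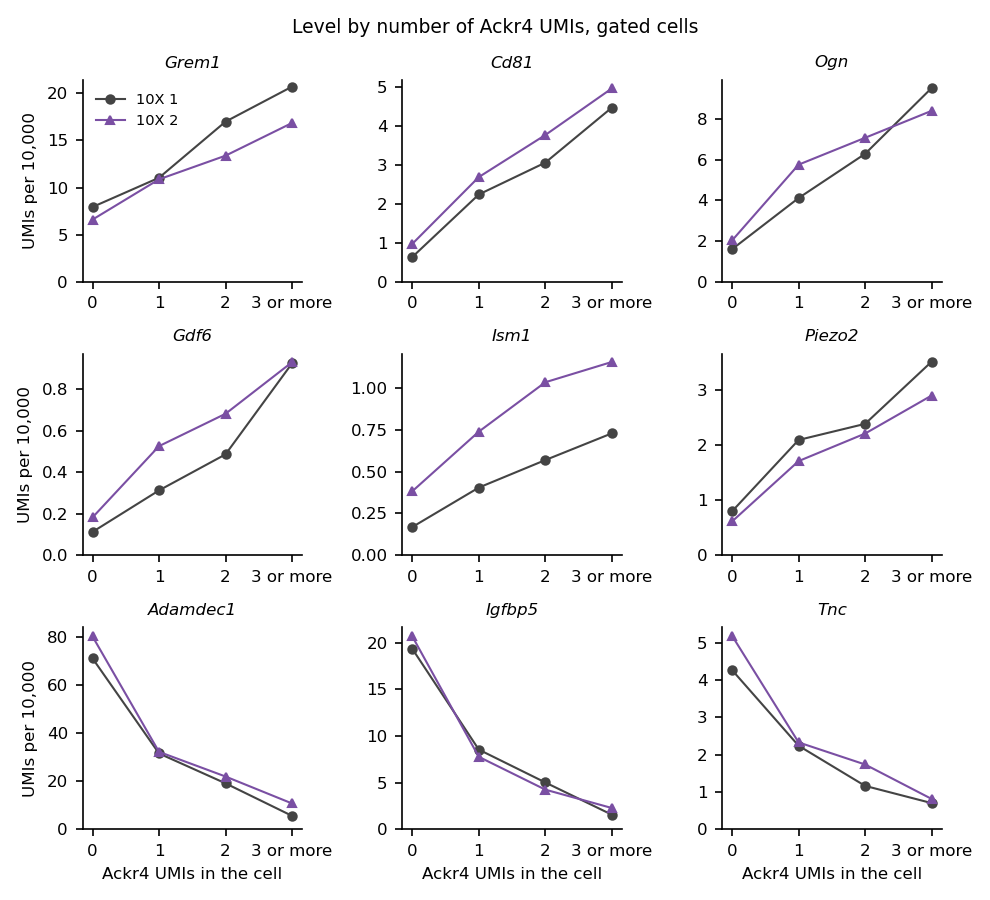
Level (y axis, UMIs per 10,000, from 0) of 9 genes in gated cells with 0, 1, 2 and 3 or more Ackr4 UMIs (x axis) in 10X library 1 (circles) and 10X library 2 (triangles). Grem1, Cd81, Ogn, Gdf6, Ism1 and Piezo2 are higher at each step in both libraries, and Adamdec1, Igfbp5 and Tnc are lower at each step. Il6 and Ccl7, which were not steady, are not drawn.

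Ism1, Gdf6, Cd81, Piezo2 and Ogn, a set chosen after their values were seen, were counted in each cell. Whether they share cells more than their own frequencies give was not tested. All 5 had a UMI in 16.8% and 16.4% of Ackr4-positive and 1.80% and 1.52% of Ackr4-negative cells. None of them did in 6.39% and 4.01% of Ackr4-positive and 43.2% and 36.6% of Ackr4-negative cells. These shares also carry the difference in depth between the groups.

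The mesothelial-like and Fibin gates, in which Ackr4 was frequent, were compared with the Ackr4-positive cells next. Neither gate required Grem1, and these comparisons share their Ackr4-positive cells with the one above. Against the mesothelial-like gate, 262 of 1502 genes were called (17.4%, limma, adjusted p at most 0.05), 90 higher in the Ackr4-positive cells (5.99%) and 172 lower (11.5%), all with the same sign in both libraries. Lower were Gdf10, a BMP family ligand (0.0968 and 0.0488 against 1.25 and 1.71), the transcription factors Ebf2 (0.00179 and 0.00719 against 0.505 and 0.612), Prrx1 and Wt1 (0.00179 and 0.0113 against 0.310 and 0.460), Ace (angiotensin-converting enzyme, 0.109 and 0.0606 against 0.921 and 0.726) and Pla1a (a phospholipase). Apart from Ace, each had a UMI in under 5% of the Ackr4-positive cells of both libraries together and passed the filter through the mesothelial-like gate, so these differences are a description of that gate. Higher were Adamdec1 (12.9 and 17.8 against 2.46 and 10.2), Tnc, Ereg, Rgs5 (a regulator of G protein signalling, 10.9 and 12.2 against 3.97 and 6.22), Ccdc3 and Col6a5. Adamdec1 differed more in library 1 than in library 2. Gdf6 was higher (0.729 and 0.789 against 0.553 and 0.450, log2 difference 0.52 ± 0.12 SE, adjusted p = 0.0361, limma) and Ogn lower (7.92 and 7.55 against 10.6 and 11.3). Cd81, at 3.78 and 4.20 against 4.87 and 4.91, and Ism1 and Piezo2 did not pass. Without the library as block, 29 genes were called, 1 higher and 28 lower, so that nearly all higher calls and most of the 172 lower calls rest on the block.

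Against the Fibin gate, 1128 of 1669 genes were called (67.6%), 559 higher in the Ackr4-positive cells (33.5%) and 569 lower (34.1%), and 67.3% were called with the same sign in both libraries. Fibin itself, a marker of that population, stood at 0.0699 and 0.103 against 29.5 and 17.5, and Fxyd6 (a regulator of the sodium pump) at 0.0555 and 0.136 against 13.5 and 11.1. Slc12a2 (a chloride cotransporter), Gdf10, Itpk1 (an inositol phosphate kinase) and Pla2g7 were lower too. Gdf10 and Pla2g7 had a UMI in under 5% of the Ackr4-positive cells of both libraries together and passed the filter through the Fibin gate. Higher were Has1 (a hyaluronan synthase, 5.28 and 3.38 against 0.204 and 0.414), Mt2 (a metallothionein), Ccl2 (4.11 and 4.07 against 0.204 and 0.835), Spon1, C4b (28.6 and 28.5 against 3.58 and 4.78) and Cxcl1. Gdf6 (0.729 and 0.789 against 0.0720 and 0.259), Ism1 and Ogn were higher, Cd81 was lower (3.78 and 4.20 against 8.91 and 7.31), and Piezo2 did not pass. Immediate-early and heat shock genes rose in 28 of 31 tested in this comparison and fell in 1, beside 33.5% and 34.1% of all genes. Markers of other cells moved with it, to be read beside the same shares. Of smooth muscle markers tested, 6 of 7 were lower in the Ackr4-positive cells, as were 3 of 4 pericyte markers and 2 of 2 immune markers. Of 3 endothelial markers, 2 were higher and 1 lower. Actg2, Cnn1, Myh11, Kcnj8 and the immune markers Lyz2 and Coro1a had a UMI in under 5% of Ackr4-positive cells, and Pecam1 and Plvap in under 5% of the Fibin gate, so that each passed the filter through the other group. The part of these lists in the comparison was not tested.

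On 2 Smartseq2 plates, 83 and 116 cells met the rule and 35 and 40 met it apart from Ackr4, with a corrected value above 0.5 taken as detected. The authors' integration corrected these values onto the 10X cells and 25.6% of them lie below 0, so they are not independent of the libraries. Of the 24 genes of largest difference, 23 had the same sign on both plates as in the 10X libraries. The exception was Cpz, with natural log differences of -0.11 and 0.24 on plates 1 and 2.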

How the data were processed

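Cells of 2 10X Genomics libraries (median 8757 and 6874 UMIs per cell, range 465 to 26890) and 2 Smartseq2 plates (360 and 379 cells) were analysed. The submitters' processing notes name Cell Ranger 3.1.0, TopHat2 2.1.1, Subread 1.4.6-p5 and Seurat, with mm10. The deposited table holds the natural log of 1 plus UMIs per 10,000, which the authors computed per 10X cell and integrated across platforms. It was read for 3891 genes, which carry 23.6% and 22.6% of UMIs, and 1 row that ends early was not used. Dividing by the value of 1 transcript gave back UMIs (100% of 10X values whole within 0.01). The members and gene lists were chosen with earlier results of these data known.

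UMIs were summed per library and group, and log2(UMIs per 10,000 + 0.1) was tested with limma 3.58.1 in R 4.3.3 (mean trend, library as block, Benjamini-Hochberg at 0.05). A gene has 1 residual degree of freedom, and the spread is shared across genes. Fold changes on this scale understate those of low genes. Genes with a UMI in at least 5% of cells of either group were tested, apart from the 15 gate genes. Named genes were the 12 of largest difference per direction (6 in the other comparisons) that were called with the same sign in both libraries and at 2000 UMIs per cell, and, for each list, at most 5 called members by size of difference and up to 3 that were not called. Other list members are named as a description. Of 178 list members called, 19 had a UMI in under 5% of the group in which they were lower, and so passed the filter through the other group. In a simulation of the Ackr4-negative comparison (1474 genes, 200 of them changed, 5% spread), 99.5% of 2-fold and 75.0% of 1.5-fold changes were recovered, with 2.93% and 1.32% of calls false. At 10% spread these shares were 98.0% and 52.0%, with 2.00% and 5.45% of calls false. Doublets were scored with Scrublet in Scanpy 1.11.5 and kept. The 10X libraries share 7 barcodes, and 1 member in each library has such a barcode. Values of some list members are not reported here. Alternatives covered depth, filter, pseudocount, gate, doublets, block and plates. Gene positions come from GENCODE M21. Other tools were Python 3.11.15 with numpy 2.4.6, pandas 2.3.3, scipy 1.17.1 and, for plots, matplotlib 3.10.9.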

Additional observations from a re-analysis of the deposited data

Results flagged for a closer look

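Tgfb2, a TGF-beta family ligand that fell in the Ackr4-positive cells, was lower in them in both 10X libraries (natural log differences -0.23 and -0.15) but higher on both Smartseq2 plates (0.20 and 0.10, mean 0.150). The opposite direction on the plates drew attention to it. The difference between platforms was not tested.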

How the results depend on the processing

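The count of 705 genes called against the Ackr4-negative cells was 338 without the replicate block, 438 with genes in at least 20% of cells, 211 with all 4 crypt genes required, 112 of 811 with the gate and values thinned to 2000 UMIs, and 62 among cells with fewer than 4 villus markers. Fewer genes were tested with the stricter filter and the thinned gate, and otherwise the cause was not tested. The remaining alternatives gave 520 (thinned after the gate) to 791 (no filter), with 709 within 5 strata of depth and 777 without the 52 and 1646 cells of highest doublet score. Of the genes called, 494 were also called within strata and after thinning. The count of 262 against the mesothelial-like gate was 447 on means of natural log values and 29 without the replicate block. That of 1128 against the Fibin gate lay between 909 and 1316. The share of Ackr4-positive cells fell to 14.6% and 9.48% with the gate on thinned cells. The block pairs the groups of 1 library, whose cells were prepared together.

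Of 1968 pairs of an alternative and a gene that the naming rule followed, at most 5 called members a list, 1946 kept their direction and 22 did not. Among cells with fewer than 4 villus markers the log2 difference of these genes changed sign for Bmper (-0.10), Id3 (-0.11), Sfrp1 (0.18), Ccl7 (-0.12), Ccl2 (-0.11), Brinp3 (-0.0051), Ebf1 (-0.013), Nfkbiz (-0.27), Fosb (-0.0090), Ier5 (-0.26), Pi16 (-0.84), Lrrn4cl (-0.27), Jam2 (-0.021), Synpo2 (0.052), Rgs5 (0.075), Abcc9 (-0.033) and Pecam1 (-0.21). Sfrp1 is 1 of the 10 villus markers that define this split, so its value there is a description. Counting every list member called over all cells, 52 of 159 with a value in the split had the opposite sign there, and 3 of these, Timp1 (-0.80), Pi16 and Nr4a1 (-0.42), were called in it. Pi16 was also negative with the thinned gate (-0.53) and with all 4 crypt genes (-0.50), Pecam1 when thinned after the gate (-0.16) and Lrrn4cl with the plates added (-0.0012). Leaving out a library leaves no residual degrees of freedom and gives values with no test, and Cxcl9 then ranged from -1.65 to 0.14. The cause of these changes was not tested. Depth limits genes below 5% of cells, which were tested only in the alternative without a filter (3609 genes against the Ackr4-negative cells).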
